A study of Danio rerio with 6 samples.

Results

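The subject is a set of 4 of the 6 libraries of a zebrafish whole kidney marrow RNA-seq series, split by how much RNA of meiotic chromosome genes they held. Meiosis-gene-rich were il7 mutant 3 and control 3, and the other oocyte-poor libraries were il7 mutant 1 and control 2, so each side held 1 mutant and 1 control. The il7 mutants lacked exons 2 to 4 of il7, which encodes a cytokine of lymphocytes, and the controls were wild type, both on the TLEK background. All libraries came from total RNA of unfractionated marrow, with ribosomal RNA removed, and the labels give no sex, age or number of fish per library. The libraries were chosen by 2 measured values. The egg coat gene zp3b was under 100 normalized counts in all 4, whereas the oocyte-rich il7 mutant 2 and control 1 held 31205 and 55927. SYCP3 then set the sides, at more than 200 in the rich libraries and less than 50 in the others.

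Meiosis is the pair of divisions by which germ cells make gametes. In its prophase the homologous chromosomes are cut by Spo11, the breaks are repaired from the homolog by the recombinase Dmc1, and the paired axes are held together by the synaptonemal complex. Spermatocytes in the adult testis and young oocytes in the ovary use this machinery, whereas the kidney marrow is the blood-forming tissue of adult fish and is not a germ-line organ.

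The values that made the split were as follows. SYCP3 (ENSDARG00000013438), a component of the synaptonemal complex axis, had 242 normalized counts in il7 mutant 3 and 653 in control 3, against 41.3 in il7 mutant 1 and 8.08 in control 2. The limits were more than 200 for the rich side and less than 50 for the other. Closest to them were il7 mutant 3 at 242 and il7 mutant 1 at 41.3. Both sides held some SYCP3, so they were not present and absent but more and less. The axis partner gene sycp2 had 270 normalized counts in il7 mutant 3 and 655 in control 3, against 29.5 in il7 mutant 1 and 0 in control 2. The zp3b values of these 4 libraries lay between 52.1 in control 3 and 68.7 in control 2. Since measured values of these libraries chose the sides, every gene of the comparison counts as used, and the differences between the sides are given as description with no test. Each side has 2 libraries, so values are given per library with no SD.

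Genes with a mean of at least 10 normalized counts over the 4 libraries were compared on log2(normalized count + 1), as the mean of the difference in il7 mutants (il7 mutant 3 minus il7 mutant 1) and the difference in controls (control 3 minus control 2). The filter took both sides together, so a gene low on 1 side could pass through its high values on the other. A gene was called consistently higher or lower where both values of a side lay at least 1 log2 unit beyond both of the other. This gave 524 consistently higher genes of 20270 (2.59%) and 74 consistently lower genes (0.365%). With any gap above 0, 3355 genes (16.6%) were higher and 3841 (18.9%) lower, so the higher genes outnumbered the lower at the larger gap and not at this one. Leaving out 1 library removes a condition, and gave 1164 higher genes without il7 mutant 3, 901 without control 3, 1601 without il7 mutant 1 and 969 without control 2, with 373, 448, 541 and 325 lower genes. Over all genes the differences in the 2 genotypes, which share no library, correlated weakly (Pearson r = 0.13 across genes, which are not independent replicates), and 52.5% had the same sign. The higher genes made up 1.27% of the normalized total in il7 mutant 3 and 1.40% in control 3, against 0.387% in il7 mutant 1 and 0.264% in control 2. In bulk samples, fewer cells of a type and less RNA per cell cannot be told apart.

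Of the list of synaptonemal complex and meiotic cohesin genes, 17 of 26 symbols were matched and 16 passed the filter on low values. Of these 11 were consistently higher, beside 2.59% of all genes. SYCP3 is among the 11, and its call was fixed by the rule that set the sides. No member was consistently lower, and the median log2 difference over the fitted members, SYCP3 included, was 3.68, against −0.02 over all genes. SYCP1, the transverse filament that links the paired axes, had 1051 normalized counts in il7 mutant 3 and 1838 in control 3, against 118 in il7 mutant 1 and 5.05 in control 2. HORMAD1, an axis protein that marks unpaired chromosomes, had 299.7 in il7 mutant 3 and 577 in control 3, against 29.5 in il7 mutant 1 and 9.09 in control 2. In both genes, as in SYCP3, the order of the libraries was control 3, il7 mutant 3, il7 mutant 1, control 2.

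The cohesin subunits that replace mitotic ones in meiosis showed the same order. The gene smc1b had 413 normalized counts in il7 mutant 3 and 744 in control 3, against 29.5 in il7 mutant 1 and 1.01 in control 2, a log2 difference of 6.15. The kleisin rad21l1 had 242 in il7 mutant 3 and 420.5 in control 3, against 36.5 in il7 mutant 1 and 12.1 in control 2. Another meiotic kleisin, rec8b, had 94.9 and 144 in the rich libraries and 21.2 and 1.01 in the others, whereas its paralog rec8a did not pass the filter, with values between 4.00 and 11.8. The cohesin subunit stag3 and the central element gene syce2 had log2 differences of 3.48 and 3.30. Of the genes that tether telomeres to the nuclear envelope, terb1 had a difference of 5.82 and MAJIN of 3.52, while terb2 differed by 1.12 without reaching the gap. Of the other members that were not called, sgo2 differed by 1.17, and sgo1, TRIP13 and SUN1, which are used outside meiosis too, by 0.11, 0.14 and 0.39.

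**Figure D1:**
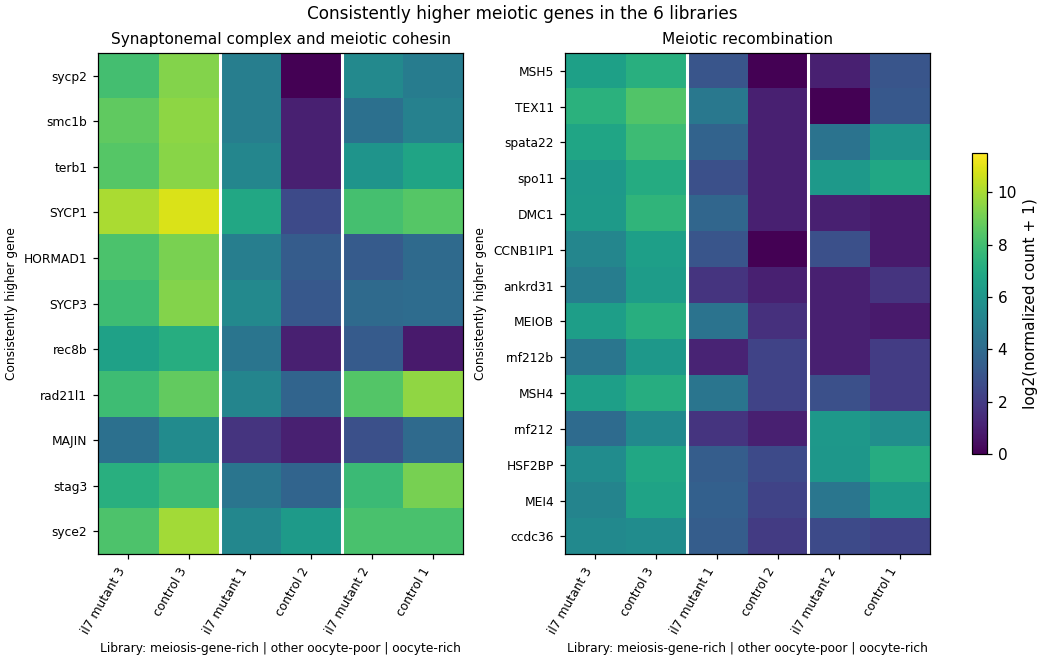
Level of each consistently higher member of the 2 meiotic lists, as log2(normalized count + 1) by colour, with genes in rows and the 6 libraries in columns, the meiosis-gene-rich libraries at the left. The genes shown are 11 of 16 and 14 of 31 fitted members. SYCP3 is among the 11, and its call was fixed by the rule that set the sides. In 23 of the 25 genes shown il7 mutant 1 stands above control 2, beside 79.2% of the 524 consistently higher genes and 50.7% of all genes fitted.

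Of the meiotic recombination genes, 31 of 32 matched members were fitted. Of these, 14 were consistently higher, beside 2.59% of all genes, and none was consistently lower. Of the 31, 16 had a positive and 15 a negative difference, beside 48.2% positive of all genes. The list summed to 7622 normalized counts in il7 mutant 3 and 8297 in control 3, against 7816 in il7 mutant 1 and 7711 in control 2. In the oocyte-rich il7 mutant 2 and control 1 it summed to 11111 and 13401. DMC1, the meiotic strand exchange recombinase, had 76.9 normalized counts in il7 mutant 3 and 183 in control 3, against 12.97 in il7 mutant 1 and 1.01 in control 2. The break-forming enzyme gene spo11 had 73.9 in il7 mutant 3 and 133 in control 3, against 5.89 in il7 mutant 1 and 1.01 in control 2. Its partners in break formation were also higher, with differences of 2.98 for MEI4, 2.84 for ccdc36 and 4.22 for ankrd31, while rec114 did not pass the filter. Among the 4 libraries DMC1, spo11, MEI4, ccdc36 and ankrd31 were lowest in control 2.

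The genes that stabilise recombination intermediates and make crossovers were MSH4, MSH5, TEX11, rnf212, rnf212b and CCNB1IP1, with log2 differences of 3.42, 5.40, 5.05, 3.36, 3.61 and 4.37. MSH5 had 92.9 normalized counts in il7 mutant 3 and 153 in control 3, against 7.07 in il7 mutant 1 and 0 in control 2. TEX11 had 161 in il7 mutant 3 and 334 in control 3, against 23.6 in il7 mutant 1 and 1.01 in control 2. The single-strand binding partners MEIOB and spata22 had differences of 3.83 and 4.98. Among the members that were not called, the repair genes brca2, mlh3 and exo1 differed by −0.05, −0.10 and −0.11, and MCM9 and FIGNL1 by −0.62 and −0.57. The Dmc1 cofactors MND1 and PSMC3IP differed by −0.62 and −0.26, prdm9 by −0.23 and the helicase gene HFM1 by 1.37. The median of the whole list was 0.51.

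Germ-line small RNA and germ plasm genes had 31 of 47 symbols matched, 26 members fitted and 17 consistently higher, beside 2.59% of all genes. The median difference was 3.41 and none was consistently lower. DDX4, the Vasa RNA helicase that marks germ cells of all stages, had 298 normalized counts in il7 mutant 3 and 680.1 in control 3, against 24.8 in il7 mutant 1 and 3.03 in control 2. PIWIL1, a Piwi protein that binds small RNAs against transposons, had 573 in il7 mutant 3 and 1278 in control 3, against 58.9 in il7 mutant 1 and 2.02 in control 2. The RNA-binding germ cell gene DAZL had 135 in il7 mutant 3 and 261 in control 3, against 12.97 in il7 mutant 1 and 2.02 in control 2. The values of il7 mutant 1 were small but above those of control 2 in each. Tudor domain genes, whose proteins assemble the Piwi machinery, were called for TDRD1, TDRD6, tdrd7a, TDRD9 and tdrd15, with differences of 4.07, 3.59, 5.45, 3.63 and 4.19. TDRD3, tdrkh, brdt and RFX2, which all 4 libraries held at similar levels, differed by 0.13, −0.08, 0.19 and 0.25. The other fitted members that were not called were tdrd5, tdrd12, gtsf1, GPAT2 and henmt1, with differences of 0.92, 1.47, 1.26, 1.81 and 0.41. Of these gtsf1 had 248 in il7 mutant 3 and 505 in control 3, against 285 in il7 mutant 1 and 75.8 in control 2. The primordial germ cell genes DND1 and NANOS3 were not fitted, with at most 22.2 and 7.07 normalized counts in the 4 libraries.

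Of the spermatid and sperm genes, 59 of 106 symbols were matched, 57 members were fitted and 13 were consistently higher, beside 2.59% of all genes. Without il7 mutant 3 it was 21, beside 5.74% of all genes, and at a gap of 2 log2 units 6, beside 1.03%. The largest differences were those of genes known from sperm or from spermatogenesis. DCST2 and dcst1 encode sperm membrane proteins needed at fertilization. DCST2 had 191 normalized counts in il7 mutant 3 and 317 in control 3, against 23.6 in il7 mutant 1 and 0 in control 2. The sperm-egg fusion factor gene spaca6 had 131 in il7 mutant 3 and 141 in control 3, against 9.43 in il7 mutant 1 and 1.01 in control 2. Its partner gene tmem81 had a difference of 4.55, and TSSK6, a kinase of spermatids, had one of 3.67. The heat shock factor gene hsf5, required for spermatogenesis in zebrafish, had 397 in il7 mutant 3 and 845 in control 3, against 57.8 in il7 mutant 1 and 7.07 in control 2. The ankyrin repeat gene FANK1, known from the mammalian testis, differed by 5.45.

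Other members of the sperm list are also used in motile cilia or in other cells. Of these TEKT1 was called with a difference of 2.05, SAXO2 with 2.01, tsga10 with 1.66 and IQCH with 1.62. Also called were cremb with 2.69 and CCNA1 with 1.33. The gene crema, which was not called, differed by 1.69 in il7 mutants and −0.45 in controls. Among those not called, TEKT4 differed by 0.12, MEIG1 by 0.37 and SPAG6 by 0.59, and PGK2 and GAPDHS by −0.29 and −0.24. SPATA4, also not called, had the lowest difference of the list, −1.49. It had 195 normalized counts in il7 mutant 3 and 16.6 in control 3, against 169 in il7 mutant 1 and 159 in control 2. Of the 57 fitted members of the list, 10 had a negative difference, beside 10502 of all 20270 genes. The median of the list was 0.67. Among motile cilium axoneme genes 72 of 77 fitted members had a positive difference, beside 48.2% of all genes, and the median was 0.74. Of the 77, 7 (9.09%) were consistently higher, beside 2.59% of all genes. DNAI1 (ENSDARG00000100081), a dynein intermediate chain, stood apart with 384 normalized counts in il7 mutant 3 and 586 in control 3, against 46.0 in il7 mutant 1 and 2.02 in control 2. The next largest cilium difference was 2.29, for cfap161. Another entry with the symbol DNAI1 (ENSDARG00000038788) differed by 0.28 and was not called. It had 458 in il7 mutant 3 and 670 in control 3, against 388 in il7 mutant 1 and 534 in control 2.

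Of 20 fitted members of the testis somatic and steroid list, 7 were consistently higher, beside 2.59% of all genes, with a median difference of 1.29. The list is not particular to the testis: 3 of the 7, STAR, cyp11c1 and hsd3b1, are also the 3 called among 12 fitted members of the list of the interrenal gland, the steroid tissue within the fish kidney, and DMRT1 is also in the germ-line small RNA list. Their source in testis or interrenal tissue was not tested. The largest difference among the 20270 genes, 8.18, was that of insl3, a peptide hormone of Leydig cells. It had 545 normalized counts in il7 mutant 3 and 1793 in control 3, against 10.6 in il7 mutant 1 and 0 in control 2. STAR, which carries cholesterol into mitochondria for steroid synthesis, had 554 in il7 mutant 3 and 239.6 in control 3, against 1.18 in il7 mutant 1 and 5.05 in control 2, an order unlike that of the germ-line genes. DMRT1, a transcription factor of testis development, had 189.8 in il7 mutant 3 and 276 in control 3, against 31.8 in il7 mutant 1 and 17.2 in control 2. The steroid enzymes cyp11c1, CYP17A1 and hsd3b1 were called and differed by 3.08, 3.30 and 3.01. HSD17B3 and the fitted CYP11A1 entry were not called, since il7 mutant 1 lay above control 3. HSD17B3 had 5264 in il7 mutant 3 and 2549 in control 3, against 2819 in il7 mutant 1 and 94.0 in control 2. CYP11A1 had 3491 and 1337, against 1835 and 111, in the same libraries. Of the 20 fitted members 4 had a negative difference, the lowest being −0.35 for wt1b. The supporting cell genes amh and gsdf were not called. The gene gsdf had 31.0 normalized counts in il7 mutant 3 and 470.4 in control 3, against 9.43 in il7 mutant 1 and 29.3 in control 2.

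**Figure D2:**
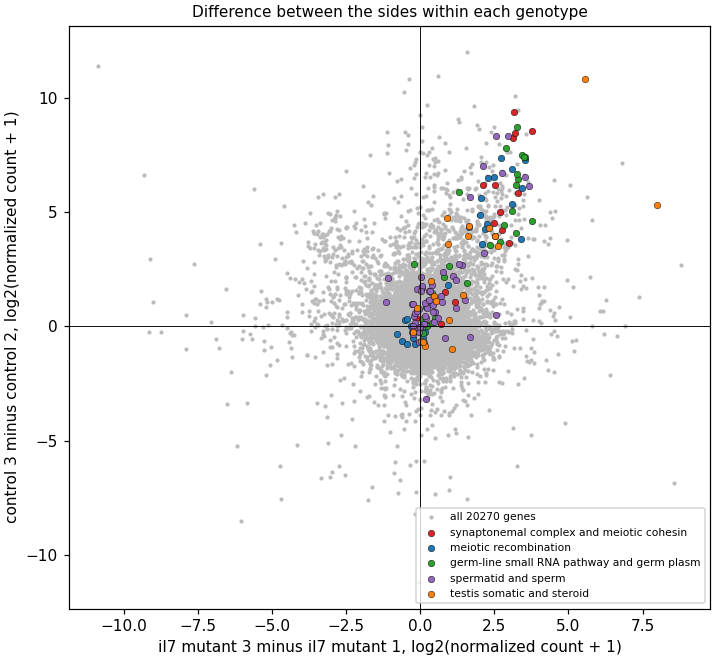
Each point is a gene with a mean of at least 10 normalized counts over the 4 libraries, with the difference between the sides in il7 mutants on the x axis and in controls on the y axis, both on log2(normalized count + 1). Grey points are all 20270 genes; the coloured germ-line and testis members in the upper right are higher on the rich side in both genotypes, and most lie farther out in controls.

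By the rule for named genes, the 25 consistently higher genes with the largest differences and a gene symbol included 12 members of the 4 germ-line lists. Others were cngk, the potassium channel of zebrafish sperm, at 904 normalized counts in il7 mutant 3 and 1399 in control 3, against 90.8 in il7 mutant 1 and 1.01 in control 2. The tubulin gene tuba7l had 2089 in il7 mutant 3 and 4330.0 in control 3, against 229 in il7 mutant 1 and 3.03 in control 2. These 2 genes kept the order of the germ-line genes. NIT1, of the nitrilase family, had this order too, but with closer values within each side. It had 2509 in il7 mutant 3 and 2995 in control 3, against 21.2 in il7 mutant 1 and 20.2 in control 2. The calls of some genes rested on little: sat2a.2 had 4045 normalized counts in control 3 but 2.00 in il7 mutant 3, against 0 in both other libraries. The aryl hydrocarbon receptor gene ahr1a had 631 in il7 mutant 3 and 527 in control 3, against 261 in il7 mutant 1 and 0 in control 2. Tubulins and other families of similar copies can share reads, so their counts are uncertain.

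The amounts were graded rather than all or none. Of all 20270 genes fitted, 10971 were higher in control 3 than in il7 mutant 3, and of the 524 consistently higher genes 426 were. Among the 55 consistently higher members of the 4 germ-line lists it was 54. The value in il7 mutant 3 was at the median 52.0% of that in control 3 (quartiles 41.6% and 61.9%). The value in il7 mutant 1 was at the median 13.5% of that in il7 mutant 3 (quartiles 9.67% and 21.6%). The value in control 2 was at the median 1.27% of that in control 3 (quartiles 0.368% and 5.01%). A called gene lies at least 1 log2 unit lower in both other libraries. The percentages of il7 mutant 1 and control 2 are therefore in part set by the choice of genes. The call of SYCP3, which is among the 55, was fixed by the rule for the sides. Of these 55 genes, 48 were higher in il7 mutant 1 than in control 2, and 7 were at 0 in control 2. Over all genes fitted, 50.7% were higher in il7 mutant 1 than in control 2, and of the 524 consistently higher genes 415 (79.2%) were. Both directions were therefore common among all called genes and not particular to the germ-line lists.

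The oocyte-rich libraries, which the sides did not use, held some of these genes and not others. Of the 524 higher genes, both oocyte-rich libraries lay above both rich libraries for 77 (14.7%, against 28.6% of all genes fitted). They lay at least 1 log2 unit below both for 284 (54.2%, against 5.42% of all genes fitted); since these genes were selected for high values on the rich side, this gap is in part set by the choice. Among the called germ-line small RNA genes 14 of 17 were above, such as DDX4 with 1787 normalized counts in il7 mutant 2 and 3447 in control 1. Among the called synaptonemal complex and cohesin genes 0 of 11 were above and 7 were below. SYCP3 had 14.9 normalized counts in il7 mutant 2 and 15.8 in control 1, and SYCP1 had 275 and 356. Of the called recombination genes 9 of 14 were below, among them DMC1 with 0.992 and 0.788. Of the called sperm genes 8 of 13 were below, among them DCST2 with 1.98 and 2.36. The gene insl3 had 1.98 in il7 mutant 2 and 6.30 in control 1. The counts below in the synaptonemal complex, recombination and sperm lists were near the 54.2% of all 524 higher genes. They are therefore not particular to these lists. The 14 of 17 small RNA genes above stand beside 14.7% of the 524. The oocyte and egg coat list, which includes zp3b and so was in part fixed by the choice of libraries, summed to 1322 normalized counts in il7 mutant 3 and 1722 in control 3, against 1483 in il7 mutant 1, 1975 in control 2, and 269916 and 524036 in il7 mutant 2 and control 1.

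**Figure D3:**
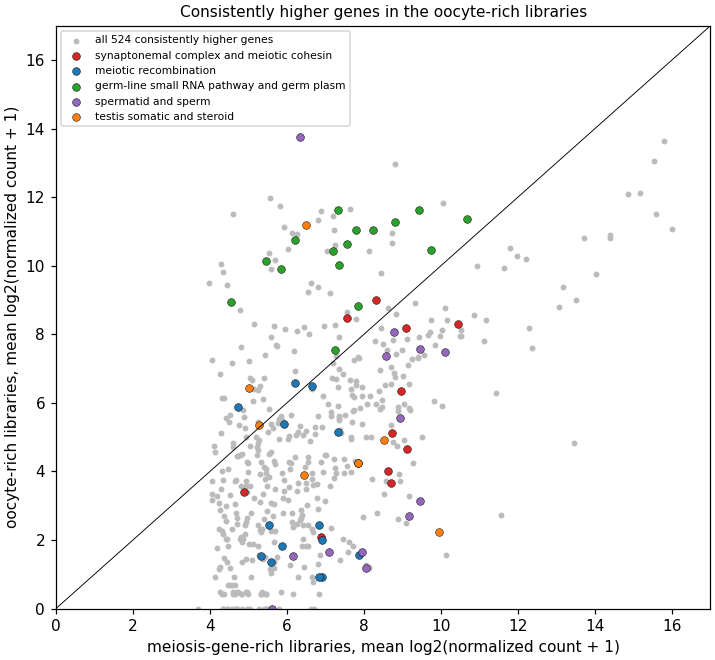
The 524 consistently higher genes, with the mean log2(normalized count + 1) of the meiosis-gene-rich libraries on the x axis and of the oocyte-rich libraries on the y axis; the line marks equal values. Germ-line small RNA genes lie mostly above the line, and most synaptonemal complex, recombination and sperm genes below it, as do most of the 524 genes.

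No member of the marrow cell lists was called between the sides, beside 2.59% of all genes called higher and 0.365% called lower. At these shares, lists of 11 to 21 fitted members would hold few called genes or none. Some immune genes outside these lists, among them MPEG1, were called lower and are given below. The neutrophil list summed to 231314 normalized counts in il7 mutant 3 and 245813 in control 3, against 266406 in il7 mutant 1 and 333102 in control 2, and the erythroid list to 480698 and 418445, against 591483 and 359449, in the same libraries. The medians were −0.22 for T cell, −0.35 for B cell, −0.28 for neutrophil, −0.36 for macrophage, −0.36 for erythroid, −0.46 for thrombocyte and −0.35 for stem and progenitor genes, beside −0.02 for all genes. The medians were farther from 0 in controls than in il7 mutants for each. In controls they reached −0.87 for erythroid, −0.69 for thrombocyte and −0.65 for B cell genes, against −0.30, −0.29 and −0.12 in il7 mutants for the same lists. Those of T cell and neutrophil genes had opposite signs in the 2 genotypes. Of the T cell markers, the coreceptor gene cd4-1 had between 36.5 and 65.7 normalized counts in the 4 libraries, and cd8a, which was not fitted, between 1.11 and 8.08. In the cell cycle list 26 of 42 members were negative, beside 10502 of all 20270 genes. Its members ccnd3 and CCNA1 were called higher (4.76%, beside 2.59% of all genes). The oocyte and egg coat list had a median of −0.30, with DAZL, which it shares with the germ-line list, as its called member (4.17%, beside 2.59% of all genes). In the ovarian follicle list STAR alone was called of 10 fitted members (10%, beside 2.59% of all genes), and the median was 0.79. STAR is shared with the testis somatic and interrenal lists. Other fitted members of the follicle list, among them gsdf, amh and CYP11A1, are in the testis somatic list too.

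Genes of some other tissues varied widely among the libraries. Liver and pancreas genes had 31 of 34 positive differences, beside 48.2% of all genes, with a median of 2.56. The median was 0.40 in il7 mutants and 2.03 in controls, and ambp alone was called (2.94%, beside 2.59% of all genes). Their summed level was 41638 normalized counts in il7 mutant 3 and 112870.0 in control 3, against 55847 in il7 mutant 1 and 22175 in control 2. The fast muscle list went opposite ways, at −2.86 in il7 mutants and 3.88 in controls, with no member called. DDC, an enzyme of amine synthesis, had 277176 normalized counts in il7 mutant 3 and 238862 in control 3, against 180531 in il7 mutant 1 and 770.0 in control 2, and the oocyte-rich il7 mutant 2 and control 1 were also low, at 1072 and 1584. STC1 (ENSDARG00000058476), the hormone of the corpuscles of Stannius, had 62802 in il7 mutant 3 and 88241 in control 3, against 91606 in il7 mutant 1 and 72.8 in control 2, while the oocyte-rich il7 mutant 2 and control 1 had 73712 and 41801. The part of these tissues in the differences between the sides was not tested. The kidney tubule, endothelial and stroma, immediate early and stress, multiciliated cell regulator and interrenal lists had medians of 0.08, 0.17, 0.05, 0.60 and 1.04.

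**Figure D4:**
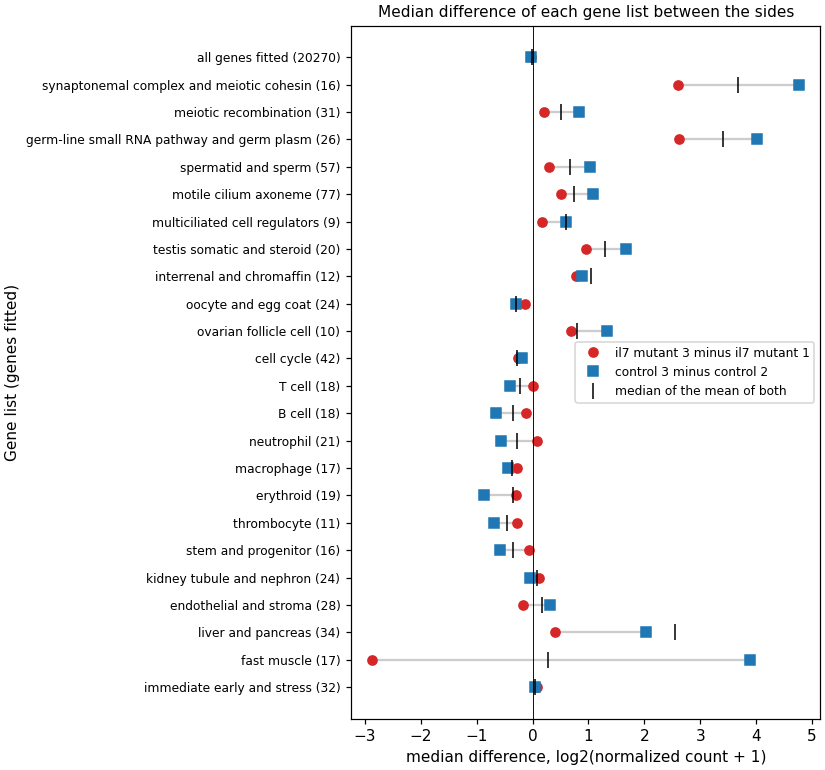
Median difference between the sides for each gene list, on log2(normalized count + 1), in il7 mutants (circles) and in controls (squares), with a vertical line at the median of the difference averaged over both genotypes. The synaptonemal complex and small RNA lists are the farthest right in both genotypes among these lists, except that the muscle list nearly reaches them in controls, where it is at 3.88 against −2.86 in il7 mutants.

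Among the 74 consistently lower genes no member of any list was found, and 32 had a gene symbol that is no clone name. The lists held only 553 of all 20270 genes fitted, so few or none would be found among 74 genes at that share. Of the 74, 24 had in a rich library a value of at most 3 times that library's smallest nonzero value, beside 260 of all 20270 genes. The largest named difference was −4.96 for scpp7, a secretory phosphoprotein gene. It had 0.999 normalized counts in il7 mutant 3 and 7.77 in control 3, against 183 in il7 mutant 1 and 90.9 in control 2. The oocyte-rich il7 mutant 2 and control 1 had 10.9 and 199. The nuclease gene dnase1l4.1 had 109.9 normalized counts in il7 mutant 3 and 77.7 in control 3, against 746 in il7 mutant 1 and 5485 in control 2. Immune genes were among the named ones: MPEG1, the macrophage perforin, had 4558 in il7 mutant 3 and 1784 in control 3, against 10263 in il7 mutant 1 and 15275 in control 2. The MHC class II gene mhc2bl had 0.999 in il7 mutant 3 and 1.11 in control 3, against 16.5 in il7 mutant 1 and 32.3 in control 2. NOS2, BATF, nitr1o and the biliverdin reductase gene blvrb differed by −1.96, −1.96, −1.99 and −2.09. Several genes of this group, among them MPEG1, mhc2bl and nitr1o, belong to families with similar copies.

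Genotype was tested across all genes in the 6 libraries with limma on the same scale. The targeted gene il7 had 4.00, 16.5 and 17.8 normalized counts in il7 mutant 3, 1 and 2, against 57.7, 61.6 and 89.8 in control 3, 2 and 1. No gene of 20782 passed an adjusted p under 0.05 (0 of 20782, 0%), against 723 (3.48%) at an unadjusted p under 0.05. The targeted il7 was among the genes that did not pass, so the fit can miss a change of that size. The authors' deposited table, made with DESeq2 and not limma, holds 112 of 21481 (0.521%) at an adjusted p under 0.05. For the genes called between the sides the limma fit is no test of genotype. Each side holds 1 mutant and 1 control, and a called gene differs by at least 1 log2 unit between libraries of the same genotype, so the choice itself sets a large spread within genotypes. As a description, the log2 change in il7 mutants was 0.24 (SE 1.80) for SYCP3, 1.41 (SE 2.29) for sycp2 and 0.57 (SE 2.174) for DMC1, and its sign depended on which libraries were included.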

How the data were processed

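RNA of whole kidney marrow was sequenced from strand-specific libraries in 3 il7 mutant and 3 control samples, per the labels' protocols. The tools listed in the submitters' processing notes are STAR 2.5.3a, bcl2fastq 2.17.1.14, DESeq2 1.14.1 and featureCounts 1.5.2, with the GRCz10 build and no stated order. No source used here gives the counting settings, so overlapping genes and near-identical copies are uncertain. The deposited values are a signal per gene, normalized counts that the authors made with DESeq2, per the file names. The authors' deposited table also holds log2 fold changes, p-values and a score, the Wald statistic, which was not used. Within 1e-06, all values of a library were whole multiples of 1 step, and these summed to between 34496353 and 46120889 per library; they were not modelled as counts.

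Groups and replicate numbers came from the titles. The number of fish per library is not stated, and the p-values therefore describe the spread among these 6 samples, which may be technical. Symbols matched 26433 of 32267 features (81.9%). Genes with a mean of at least 10 were kept, 1 was added before log2, and the difference between the sides was averaged over the genotypes. By rule the text could name SYCP3, sycp2 and zp3b, up to 25 higher and 15 lower called genes with the largest difference and no clone name, any fitted member of a gonad list, and from each other list the 2 members with the largest difference. Genes that were not fitted, cd4-1, the DNAI1 entry that was not called and members named beside counts of 5 or fewer were chosen after their values were seen. Genotype was tested with limma 3.58.1 (R 4.3.3), using a mean-variance trend and Benjamini-Hochberg adjustment over all genes fitted. The steps were tested on simulated data. The libraries, members and lists were chosen with earlier results of these data known. Chi-square per degree of freedom was at least 97.7 in each of 15 pairs of libraries, so none was counted as a duplicate. Alternatives covered the pseudocount, the filter, the gap, the scaling, a replicate block and each library left out. Some list members are not reported here.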

Additional observations from a re-analysis of the deposited data

Results flagged for a closer look

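The fast muscle list differed between the sides in opposite directions in the 2 genotypes. Its median difference was −2.86 log2 units in il7 mutants, where il7 mutant 3 held 34599 normalized counts summed over the list and il7 mutant 1 held 281995, and 3.88 in controls, where control 3 held 145427 and control 2 held 8236. Each genotype gave 1 difference, and the difference between them was not tested.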

How the results depend on the processing

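The 524 consistently higher genes became 258 with a mean of at least 50, 914 with no filter, 3355 at any gap above 0 and 208 at a gap of 2, and the 74 consistently lower genes became 35, 207, 3841 and 22 under the same settings. Quantile normalization, which left 446 higher genes, gave 123 lower genes. Leaving out 1 library, which removes a condition, gave 901 to 1601 higher and 325 to 541 lower genes. Pseudocounts of 0.5 and 5 gave 549 and 455 higher genes, and upper quartile scaling, chosen after seeing the data, gave 548. Counts of called list members moved by more than 1.5 times in 4 cases: 7 of 24 fitted recombination and 4 of 13 testis somatic genes with a mean of at least 50 (1.57% of all genes), and of 57 spermatid and sperm genes 6 at a gap of 2 (1.03%) or 21 without il7 mutant 3 (5.74%). The median of all genes was −0.02, against −0.07 after quantile normalization. The immediate early and stress median was −0.03 after quantile normalization; the T cell (0.02), neutrophil (0.09), endothelial and stroma (−0.18) and fast muscle (−2.86) medians changed sign in il7 mutants alone, and that of kidney tubule (−0.04) in controls alone.

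No paired analysis was possible for the sides because they come from no test and share only 1 replicate number across genotypes. For genotype, same-numbered libraries had deviations correlated at −0.51, −0.40 and 0.51, and the main fit did not pair them. The largest correlation, 0.73, was that of the oocyte-rich control 1 and il7 mutant 2. Taken over all genes, oocyte genes included, the deviations cannot show whether same-numbered samples were handled together. The fit with the replicate block called 0 genes, with 634 at an unadjusted p under 0.05, and 0 genes were called in each of the 13 alternatives. Given as description, without 1 library the log2 change ranged from −0.94 to 2.15 for SYCP3 (0.24 over all 6 libraries), from −0.96 to 3.72 for sycp2 (1.41) and from −0.72 to 2.77 for DMC1 (0.57). It was negative for SYCP3 without control 1 (−0.50), control 2 (−0.94) or il7 mutant 3 (−0.84), for sycp2 without control 2 (−0.96) and for DMC1 without control 1 (−0.57), control 2 (−0.49) or il7 mutant 3 (−0.72); the cause was not tested. With no count table used here, edgeR, DESeq2 and TMM rescaling were not run. Values of a few normalized counts, as in control 2 or for some lower genes in the rich libraries, rest on a few reads each.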
